A study of Mus musculus with 11 samples.

Results

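Genes of the fibroblast growth factor (FGF) signalling loop were examined for the binding of 5 transcription factors (TFs) in mouse epiblast stem cells (EpiSCs). The 10 genes, of 22367 protein-coding genes in the annotation, were 4 ligands (Fgf4, Fgf5, Fgf8 and Fgf15), the receptor Fgfr1, the feedback inhibitors Spry2, Spry4 and Dusp6, and the target TFs Etv4 and Etv5. Every ChIP-seq peak whose midpoint lay within the gene body or 50 kb to either side was assigned to the gene, which gave 552 of the 1004445 peaks in the 10 peak lists. In EpiSCs the windows held 280 peaks, and after activin removal 272.

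FGF ligands bind receptor tyrosine kinases on the cell surface, and the receptors signal through RAS and a cascade of kinases that ends in ERK. ERK activity switches on the ETS-family TFs ETV4 and ETV5 and also Sprouty proteins and the phosphatase DUSP6, which damp the same cascade. In the early mouse embryo FGF4 drives cells of the inner cell mass out of naive pluripotency, FGF5 marks the epiblast of the egg cylinder, FGF8 acts in the primitive streak and in neural patterning, and FGF15 is made in the neural plate.

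ChIP-seq was done with ZIC2, OTX2, SOX2, POU5F1 or POU3F1 in a 129/Sv EpiSC line, in a single library for each TF in each of 2 cultures. The TF was exogenous: it carried the biotin acceptor peptide BLRP, was expressed together with the biotin ligase BirA from a transiently transfected pCAGGS plasmid, and was pulled down with streptavidin, so that binding of the endogenous protein was not measured. All cultures contained FGF2 at 10 ng/ml. EpiSC cultures also contained activin at 20 ng/ml, whereas activin-free cultures had been without it for 18 h at harvest, and every culture therefore received an FGF ligand from the medium. There were no replicates, so no value below has a replicate error and no test between cultures was possible. A difference between the cultures compares 2 libraries, not 2 conditions.

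Positions are those of mm9, the mouse genome build of the deposited lists. Beside the position, a list gave for every peak a MACS1.4 score, which is -10 times the log10 of its p-value and ran from 50 to 3233. The 5 EpiSC lists held 62457 to 122053 peaks and the activin-free lists 87907 to 126908. Read depth is unknown, since the lists contain no reads. Many peaks had the score 3100 exactly, up to 3111 peaks in the activin-free POU5F1 list, and such peaks could not be ranked among one another. Every list had a peak with a score of 3100 over the coding exons of its own TF gene, and every list except activin-free POU5F1 overlapped most with the list of the same TF from the other culture. In the paper, the strong SOX2 peak over Sox2 itself is put down to carryover of the transfected vector. Peaks over a TF's own gene are therefore not read as binding here. The activin-free POU5F1 list, the longest, overlapped at 47.6% of its peaks with POU3F1 peaks of EpiSCs and at 47.1% with POU5F1 peaks of EpiSCs. Both ZIC2 lists also had peaks with scores of 2029 to 3100 over the coding exons of Sox2, Pou5f1 and Pou3f1. Peak lists hold no RNA levels, so the cell type could not be checked against marker genes.

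ZIC2 and OTX2 dominated the FGF loop genes. In EpiSCs the windows, 1129 kb in all, held 129 ZIC2, 107 OTX2, 22 SOX2, 14 POU5F1 and 8 POU3F1 peaks. Compared with the windows of all protein-coding genes, the density of peaks was 1.77 times as high for ZIC2 (95% Poisson interval 1.48-2.11) and 1.79 times as high for OTX2 (1.47-2.17). SOX2, with a ratio of 0.8 (0.501-1.21), was near the level of all genes, while POU5F1 with 0.517 (0.283-0.868) and POU3F1 with 0.2 (0.0862-0.394) were below it. These intervals cover counting error only. Within 50 kb of the gene start the POU5F1 ratio was 0.681 (0.363-1.16), an interval that included the level of all genes. The median POU3F1 density was 0 at the 10 genes and also 0 over all protein-coding genes. By gene, the ZIC2 density ran from percentile 27.4 of all protein-coding genes at Dusp6 to 96.4 at Fgf4. It was below the median of all genes at Dusp6, Etv5 (47.9), Fgf5 (48.8) and Spry2 (49.5). OTX2 densities ran from percentile 35.0 at Spry4 to 92.5 at Fgf4. Without Fgf4 and Fgf15, whose windows overlap, the ratios were 1.43 (1.15-1.75) for ZIC2 and 1.70 (1.37-2.09) for OTX2. Of the POU peaks, 9 of 14 for POU5F1 and 7 of 8 for POU3F1 were at Fgf5, and without that gene the ratios were 0.207 and 0.0280. The 10 genes thus fell into Fgf5, with peaks of all 5 TFs, and 9 genes at which POU peaks were few or absent. In the activin-free lists ZIC2 had a ratio of 1.89 and OTX2 one of 1.30. SOX2 was at 0.944, POU5F1 at 0.492 and POU3F1 at 0.222.

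Counted by gene, at least 1 ZIC2 peak and at least 1 OTX2 peak were found at 10 of the 10 genes in EpiSCs, as at 93.1% and 93.3% of all protein-coding genes. SOX2 peaks were found at 7 genes, against a background of 75.0%, POU5F1 peaks at 5 (77.3%) and POU3F1 peaks at 2 (47.8%). In activin-free cells ZIC2 (92.3% of all genes) and OTX2 (95.6%) each had peaks at 10 genes. SOX2 had peaks at 8 (85.6%), POU5F1 at 6 (89.5%) and POU3F1 at 2 (53.0%). A ZIC2 peak that overlapped an OTX2 peak was present at 10 genes in both cultures, against 69.1% of all genes in EpiSCs and 64.7% in activin-free cells. The mere presence of a ZIC2 or OTX2 peak was thus nearly universal among genes, and the numbers, scores and overlaps carry what differed between the members.

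**Figure D1:**
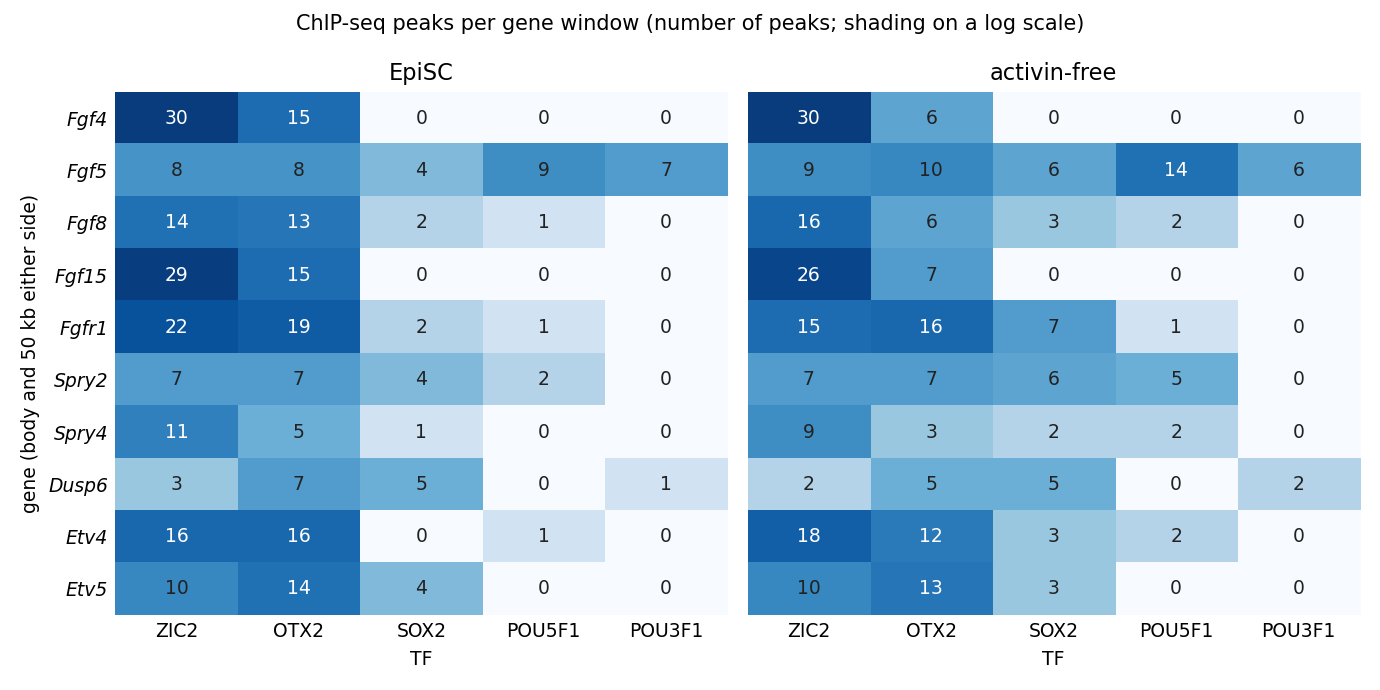
Number of peaks of each TF (columns) in the window of each gene (rows) in EpiSCs and in activin-free cells; darker shading stands for more peaks on a log scale. ZIC2 counts run from 2 to 30, and the POU3F1 columns are 0 at every gene except Fgf5 and Dusp6.

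Over the starts of the 10 genes in EpiSCs, ZIC2 peaks had higher scores than OTX2 or SOX2 peaks. Scores over the starts of other genes are not given here. A ZIC2 peak covered the annotated start of 9 of the 10 genes in EpiSCs, against 61.6% of all protein-coding genes, and of 8 genes in activin-free cells, against 59.8%. Its score was 3100 at Fgf4 and Fgf8, 2319 at Spry4, 2039 at Spry2, 1305 at Fgf15, 1304 at Fgf5, 1086 at Etv4, 736 at Dusp6 and 611 at Etv5 in EpiSCs. At Fgfr1 the nearest ZIC2 peak began 443 bp from the start and had a score of 1461, and in activin-free cells the nearest one at Spry2 stopped 135 bp short. OTX2 peaks covered the start of 3 genes in EpiSCs (Fgfr1, Dusp6 and Etv4; 9.52% of all genes) and of 2 genes in activin-free cells (Dusp6 and Etv4; 9.10%). SOX2 peaks covered the start of Fgfr1, Spry4 and Dusp6 in EpiSCs, 3 genes against a background of 1.44%, and of the same genes and Etv4 in activin-free cells, 4 genes against 5.12%. The SOX2 scores there were low in EpiSCs, at 123, 60 and 81.9, and higher in the activin-free list, at 427, 93.8 and 198. Neither POU5F1 nor POU3F1 had a peak over the start of any of the 10 genes, 0 genes in each list, where the background was 0.747% and 1.57% in EpiSCs and 1.80% and 2.89% in activin-free cells.

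Fgf5, which encodes a secreted ligand of the epiblast, lies at chr5:98683203-98706049 on the plus strand (ENSMUSG00000029337.1) with no other protein-coding gene in its window. In EpiSCs it had 8 ZIC2, 8 OTX2, 4 SOX2, 9 POU5F1 and 7 POU3F1 peaks. Its ZIC2 and OTX2 densities were ordinary, at percentiles 48.8 and 52.2 of all protein-coding genes, whereas its POU5F1 density was at percentile 98.7 and its POU3F1 density at percentile 86.3. The window had the lowest GC content of the 10, at 42.0%, against a median of 44.3% over all genes. Spry2, with 42.3%, had 2 POU5F1 peaks, a density at percentile 61.7, and 0 POU3F1 peaks. The part of GC content in the peak counts was not tested.

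Peaks around Fgf5 were arranged in 25 sites, counting a run of overlapping peaks of any TF as 1 site, and ZIC2 and OTX2 peaks overlapped at 4 of them. Apart from the peak over the gene start, ZIC2 scores were highest in the intron 1.81 kb from the start, where a ZIC2 peak (score 1220) overlapped an OTX2 peak (133). Further sites lay downstream of the gene. The site 29.2 kb from the start had peaks of 4 TFs, with scores of 1167 for ZIC2, 344 for OTX2, 92.9 for POU5F1 and 136 for POU3F1. At 38.9 kb OTX2 (522) overlapped weak ZIC2 (77.9) and SOX2 (84.7) peaks, and at 56.0 kb ZIC2 (862) and OTX2 (538) overlapped a SOX2 peak (56.1).

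POU-bound sites of Fgf5 were largely separate from these. The highest POU5F1 score in the window, 681, was at 23.4 kb, where a POU3F1 peak of 523 overlapped it and no ZIC2 or OTX2 peak was called in EpiSCs. A second pair was in the intron at 5.66 kb, where POU3F1 (463), POU5F1 (250) and SOX2 (52.7) shared a site. Upstream of the gene 3 POU5F1 peaks stood alone at -43.5, -34.6 and -21.4 kb. Over the 10 genes, 3 of 14 POU5F1 peaks overlapped a POU3F1 peak (21.4%, Wilson interval 7.57-47.6), all at Fgf5, whereas 51.7% of the whole POU5F1 list did. None of the 14 overlapped a ZIC2 peak (interval 0-21.5), compared with 5.26% of the whole list. The whole list includes peaks far from any gene, and the part of this in these shares was not tested.

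Sequences of 200 bases around the midpoint of 2 Fgf5 peaks, read from the plus strand of mm9, show the difference between the intronic ZIC2-OTX2 site and a POU site. In the first, from the OTX2 peak at chr5:98684829-98685028, capitals mark the OTX2 sequence GGATTA, here on the minus strand, and the ZIC2 sequence CAGCAGG on the plus strand. The second, at chr5:98688347-98688546, is from the POU5F1 peak 5.24 kb from the start, and capitals mark an octamer, ATGCATAT on the minus strand, which lies beside a run of CA repeats. An overlapping copy of ATGCATAT on the plus strand is only partly in capitals.
Fgf5 intron, ZIC2-OTX2 site: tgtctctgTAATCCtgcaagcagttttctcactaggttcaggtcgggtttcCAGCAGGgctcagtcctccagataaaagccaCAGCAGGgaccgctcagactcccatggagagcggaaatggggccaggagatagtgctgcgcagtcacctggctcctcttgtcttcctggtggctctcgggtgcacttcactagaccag
Fgf5 intron, POU5F1 peak: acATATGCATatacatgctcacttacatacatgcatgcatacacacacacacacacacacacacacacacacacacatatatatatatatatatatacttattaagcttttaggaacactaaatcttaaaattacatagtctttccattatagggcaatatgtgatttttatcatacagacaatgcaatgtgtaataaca
The first holds 1 GGATTA and 2 CAGCAGG within 200 bases. None of these letters, and no octamer or GGTAAT, was found in the same span around the other 3 OTX2 peaks that overlapped ZIC2 at this gene, although their scores were higher (344 to 538).

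After activin removal all 4 ZIC2-OTX2 sites of Fgf5 were still present. ZIC2 scores were 2398 in the intron and 2070 at 29.3 kb, compared with 1220 and 1167 in EpiSCs, and the OTX2 score at 29.3 kb was 530 compared with 344. Lower scores were also seen, 102 compared with 133 for OTX2 in the intron and 55.3 compared with 77.9 for ZIC2 at 38.9 kb. At 29.3 kb a SOX2 peak (139) had joined, so that this site held peaks of all 5 TFs. The POU5F1 scores moved furthest: 2929 at 23.4 kb compared with 681, 1679 in the intron compared with 250, and 885 at -20.9 kb compared with 232. All 9 POU5F1 peaks were found again, and 5 more were called only in the activin-free list, with a highest score of 552. The median log2 ratio of activin-free to EpiSC scores was 1.91 over the matched peaks of Fgf5 and 1.94 over all matched POU5F1 peaks. The higher scores were thus not particular to Fgf5, and their cause was not tested. An OTX2 peak of 261 was called at 23.1 kb, over the POU5F1-POU3F1 site that lacked one in EpiSCs.

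**Figure D2:**
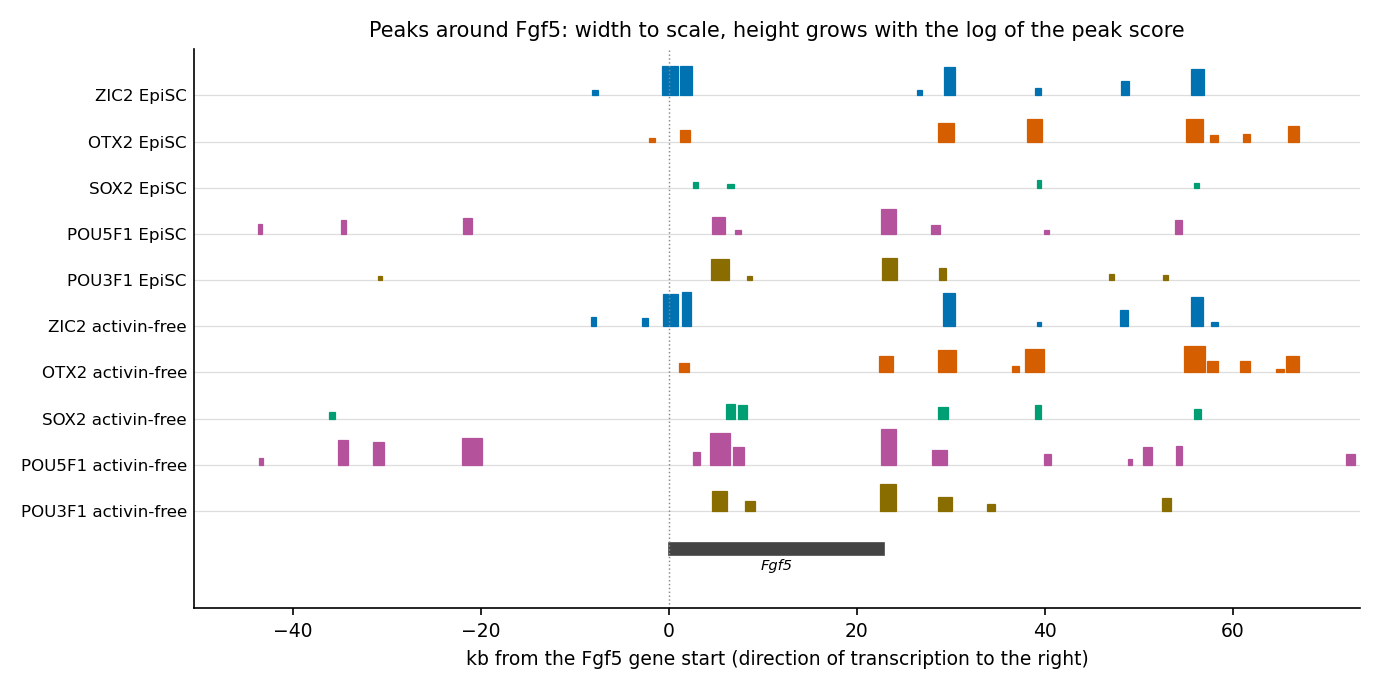
Peaks of the 10 lists in the Fgf5 window, plotted by distance in kb from the gene start; bar width is the peak's width, bar height grows with the log of its score, and the dark bar is the gene body. ZIC2 and OTX2 peaks coincide 29 kb, 39 kb and 56 kb downstream in both cultures, while the highest POU5F1 and POU3F1 peaks lie at 23.4 kb.

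Fgf4, the ligand made by pluripotent cells, at chr7:152047291-152051148 (ENSMUSG00000050917.4), and Fgf15, at chr7:152082437-152086858 (ENSMUSG00000031073.5), are neighbours on the plus strand. They are 31.3 kb apart and their windows share 68.7 kb, so 21 ZIC2 and 12 OTX2 peaks of EpiSCs counted for both, and the 2 genes are not independent. Fgf3 also lies in the Fgf4 window, Ccnd1, which encodes cyclin D1, in that of Fgf15, and Oraov1 in both. Fgf4 had 30 ZIC2 and 15 OTX2 peaks and Fgf15 29 and 15. The ZIC2 densities, at percentiles 96.4 and 95.1, were the highest of the 10 genes. So was the GC content of the windows, at 50.3% and 50.2%, and its part in the peak counts was not tested. SOX2, POU5F1 and POU3F1 had no peak in either window in either culture.

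ZIC2 peaks with scores of 3100 or more covered the starts of Fgf4 and Fgf3 in EpiSCs, the latter with 3110, and the start of Fgf15 had a peak of 1305. Between Fgf4 and Fgf15, ZIC2 peaks without any other TF stood 15.6 kb (1151), 17.2 kb (856) and 27.5 kb (721) from the Fgf4 start. At 9 of 10 ZIC2-OTX2 sites in the Fgf4 window OTX2 scores ran from 50 to 187, around the median of 99.2 of the whole OTX2 list. The exception was an OTX2 peak of 768 with a ZIC2 peak of 514 in the intron of Fgf15, 2.48 kb from its start, which was the highest OTX2 score at the 10 genes. Fgf4 had 11 ZIC2 peaks that overlapped OTX2, at percentile 99.4 of all genes, and Fgf15 had 10.

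A site between the genes, 23.4 kb from the Fgf4 start and 11.7 kb upstream of Fgf15, is shown because it holds both binding sequences. The 200 bases are around the midpoint of its OTX2 peak (score 101, with ZIC2 at 363) at chr7:152070143-152070342, plus strand of mm9, with CAGCAGG and GGATTA in capitals. The line after it gives a Sox/octamer element of Fgf4 at chr7:152050299-152050316, plus strand, 3.01 kb from the start in an untranslated region of the annotation. FGF4 expression in pluripotent cells is known to depend on an enhancer of this kind, bound by SOX2 and POU5F1, and the letters CTTTGTT and ATGCTAAT with a gap of 3 bases were searched for after the peak counts had been seen.
Fgf4-Fgf15, ZIC2-OTX2 site: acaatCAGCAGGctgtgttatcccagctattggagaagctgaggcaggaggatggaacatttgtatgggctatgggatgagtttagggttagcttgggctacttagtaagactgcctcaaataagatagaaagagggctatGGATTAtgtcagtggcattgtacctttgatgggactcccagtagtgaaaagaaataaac
Fgf4, Sox/octamer element: CTTTGTTtggATGCTAAT
The element, searched on both strands, had 18 matches on chromosomes 1 to 19, X and Y and lay in 0.103% of gene windows. Of the 10 lists, only OTX2 in EpiSCs had a peak over it, with a score of 64.9. The midpoint of the nearest SOX2 peak was 295 kb away and that of the nearest POU5F1 peak 74.4 kb in EpiSCs, and in activin-free cells the distances were 512 kb and 74.4 kb. The midpoint of the nearest ZIC2 peak (146) was 0.480 kb away.

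In activin-free cells the ZIC2 peaks of this region were nearly all found again, 28 of 30 at Fgf4 and 25 of 29 at Fgf15, with median log2 ratios of the scores of 0.02 and 0.04. The OTX2 peaks were not: 6 of 15 were found again at Fgf4 and 7 of 15 at Fgf15, and the activin-free list had no OTX2 peak of its own there. The OTX2 peaks that were missing had a median score of 61.9 at Fgf4 and 63.4 at Fgf15, below the median of 99.2 of the whole list, with highest scores of 187 and 225. The strong OTX2 peak in the Fgf15 intron remained, with 1028 compared with 768. Summed width of OTX2 peaks at Fgf4 was 12.7 kb in EpiSCs and 5.79 kb in activin-free cells.

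**Figure D3:**
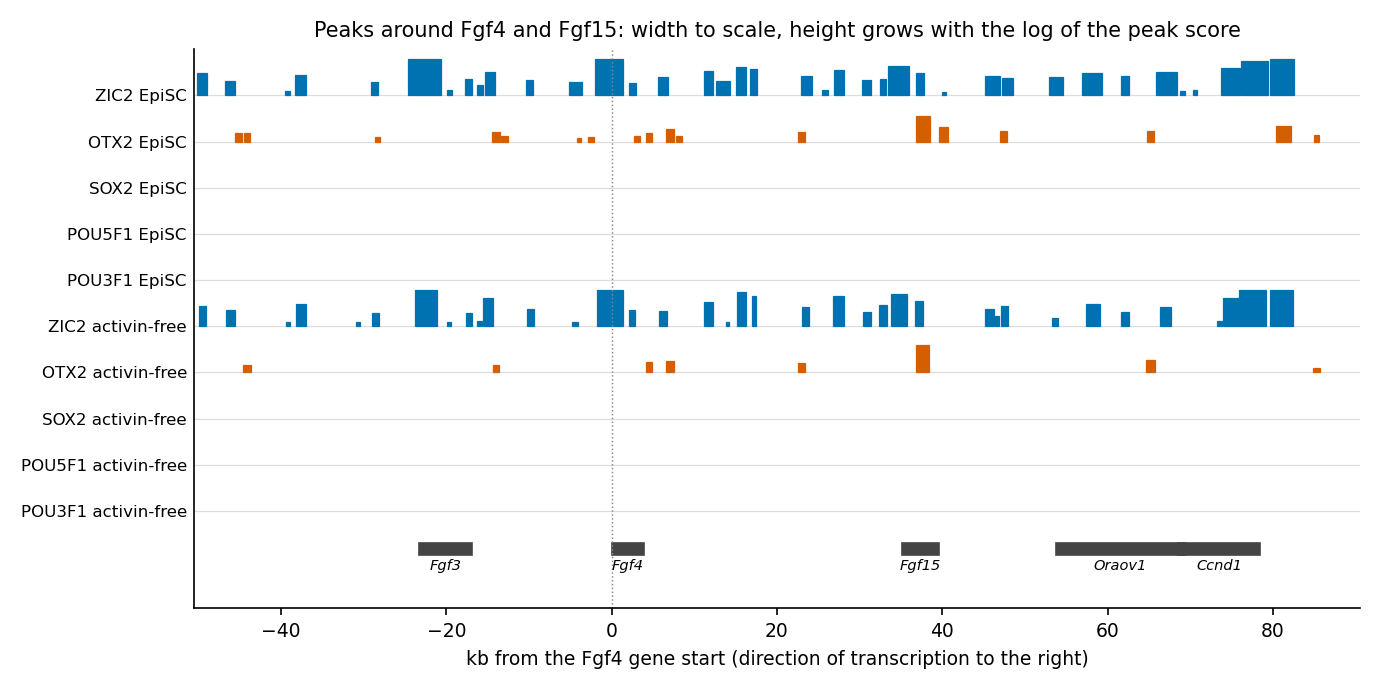
Peaks of the 10 lists from 50 kb upstream of Fgf4 to 50 kb downstream of Fgf15, by distance in kb from the Fgf4 start, with bar width and height as for Fgf5 and gene bodies in dark bars. The SOX2, POU5F1 and POU3F1 rows are empty, and in the Fgf4 window the OTX2 rows hold 15 peaks in EpiSCs and 6 in activin-free cells.

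Fgf8, a ligand of the primitive streak, at chr19:45811288-45817405 on the minus strand (ENSMUSG00000025219.7), had 14 ZIC2, 13 OTX2, 2 SOX2 and 1 POU5F1 peaks in EpiSCs. ZIC2 and OTX2 peaks were largely in different stretches of the window. ZIC2 peaks were crowded around the gene, with 3100 over the start, 825 at 5.69 kb and 2431 at 8.72 kb, downstream of the gene. OTX2 peaks instead formed 2 runs upstream, over the neighbouring gene Mgea5. Those at -13.9 to -17.9 kb had scores of 219, 277, 99.1 and 303, and those at -35.5 to -38.1 kb had 211, 127 and 77.7. Only 2 sites had overlapping ZIC2 and OTX2 peaks, at 7.67 kb and at -40.3 kb, the latter over the start of Mgea5. In the activin-free list there were 6 OTX2 peaks, of which 2 were wide. A peak of 4772 bp (score 737) overlapped the 4 peaks of the first run and one of 3941 bp (481) the 3 of the second, and the summed width of OTX2 peaks was 13.3 kb compared with 14.7 kb.

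The receptor gene Fgfr1 (chr8:26624126-26686186, plus strand, ENSMUSG00000031565.10) had 22 ZIC2, 19 OTX2, 2 SOX2 and 1 POU5F1 peaks in EpiSCs. The highest score at any of the 10 genes, 3214, was that of a ZIC2 peak at -48.0 kb, which overlapped an OTX2 peak of 87.6. At -45.1 kb was the only POU5F1 peak of the window (690), overlapping an OTX2 peak (334). The central 200 bases of that POU5F1 peak held an octamer, ATGCAAAT, and a run of CA repeats. The annotated start had OTX2 (66.8) and SOX2 (123) peaks, and ZIC2 peaks followed at 1.18 kb (1461) and at 5.62 kb (1701), the latter over another annotated Fgfr1 start. Letm2 and Whsc1l1 share the window, and a ZIC2 peak of 1297 at 83.7 kb covered the Letm2 start and overlapped an OTX2 peak of 158.

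The ZIC2 peak upstream of Fgfr1 is shown by its central 200 bases at chr8:26575999-26576198, plus strand of mm9, as the highest-scoring peak at the 10 genes. Capitals mark CAGCAGG, here on the minus strand.
Fgfr1 upstream, ZIC2 peak: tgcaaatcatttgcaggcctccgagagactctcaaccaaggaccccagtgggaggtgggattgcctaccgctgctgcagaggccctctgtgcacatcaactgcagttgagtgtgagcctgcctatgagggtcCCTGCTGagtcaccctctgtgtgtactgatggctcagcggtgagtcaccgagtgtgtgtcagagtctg
Over all members 21 of 129 ZIC2 peaks held CAGCAGG in their central 200 bases (16.3%, Wilson interval 10.9-23.6), compared with 19% of the whole list and 4.65% of windows of the same length 1000 bp to either side of the member peaks.

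In activin-free cells 15 of 22 ZIC2 and 15 of 19 OTX2 peaks of Fgfr1 were found again, and the ZIC2 peaks that were not had scores of up to 134. SOX2 had 7 peaks at this gene compared with 2. The score over the start was 427 compared with 123, that in the intron at 31.4 kb was 244 compared with 101, and a peak at -5.03 kb (243) was called only in the activin-free list. The SOX2 list as a whole was longer, at 87907 compared with 63751 peaks. POU5F1 had 1583 compared with 690 at its single site.

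Among the feedback inhibitors, Spry2 (chr14:106291166-106296036, minus strand, ENSMUSG00000022114.4), which encodes a Sprouty antagonist of receptor tyrosine kinase signalling, has no coding neighbour in its window. It had 7 ZIC2, 7 OTX2, 4 SOX2 and 2 POU5F1 peaks in EpiSCs. Around its start a site of 5387 bp held peaks of 3 TFs, with highest scores of 2039 for ZIC2, 155 for OTX2 and 66.2 for SOX2. A pair of strong ZIC2 peaks lay upstream at -24.1 kb (1434) and -26.2 kb (1421), the first overlapping the highest SOX2 peak of the 10 genes in EpiSCs (398). The POU5F1 peak of 531 stood alone at 8.48 kb, downstream of the gene.

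Central bases of 2 Spry2 peaks, plus strand of mm9, are given because the promoter and the upstream site carry different binding sequences. At the OTX2 peak at -1.32 kb, chr14:106297259-106297458, capitals mark GGATTA. At the SOX2 peak at -23.9 kb, chr14:106319807-106320006, capitals mark SOX2 sequences on either strand, for which ACAAAA or else ACAAAG, and likewise the form ACAATA or instead the form ACAATG, was searched.
Spry2 promoter, OTX2 peak: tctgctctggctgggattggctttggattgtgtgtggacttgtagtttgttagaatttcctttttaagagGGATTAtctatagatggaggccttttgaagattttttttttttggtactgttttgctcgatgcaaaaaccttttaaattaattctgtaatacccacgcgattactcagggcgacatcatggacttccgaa
Spry2 upstream, SOX2 peak: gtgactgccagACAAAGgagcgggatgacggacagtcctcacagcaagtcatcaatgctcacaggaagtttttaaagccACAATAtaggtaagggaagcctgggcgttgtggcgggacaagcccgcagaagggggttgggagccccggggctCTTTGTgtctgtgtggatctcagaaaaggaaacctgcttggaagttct
GGATTA was found in 20 of 107 OTX2 member peaks (18.7%, 12.4-27.1), compared with 23.5% of the whole list and 9.81% of flanking windows. SOX2 sequences, which are short and common, were found in 21 of 22 SOX2 member peaks (95.5%, 78.2-99.2), compared with 85.8% of the whole list and 54.5% of flanking windows.

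After activin removal the upstream SOX2 peak of Spry2 had a score of 1312 compared with 398, and the ZIC2 peak over it 1937 compared with 1434. POU5F1 peaks numbered 5 compared with 2, with 1277 compared with 531 for the strongest. At 36.7 kb, 1 site of activin-free cells held OTX2 (425), ZIC2 (277) and SOX2 (109), where EpiSCs had separate sites of at most 2 TFs. The 7 ZIC2 and 7 OTX2 peaks of the gene were as many as in EpiSCs.

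Spry4 (ENSMUSG00000024427.6), the other Sprouty gene, lies on chromosome 18 and shares its start region with Arhgap26, transcribed in the opposite direction. It had 11 ZIC2, 5 OTX2 and 1 SOX2 peaks in EpiSCs, with a ZIC2 density at percentile 59.9 of all protein-coding genes. The ZIC2 peak over the start (2319) also covered the starts of Arhgap26 and 9630014M24Rik and overlapped a SOX2 peak of 60. Another ZIC2 peak of 2436 lay at -30.7 kb, and one of 1117 lay at 27.6 kb, beyond the gene end, with an OTX2 peak of 88.2. Its OTX2 scores ran from 59.3 to 111, around the median of 99.2 of the whole list. Of the 5 OTX2 peaks 1 was found again in activin-free cells, compared with 8 of 11 ZIC2 peaks, and the activin-free OTX2 list had 2 peaks of its own, with scores up to 223. POU5F1 had 2 weak peaks there (up to 63.9), and none in EpiSCs.

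Dusp6 (chr10:98725865-98730122, plus strand, ENSMUSG00000019960.6), which encodes a phosphatase of ERK, had the fewest ZIC2 peaks, 3 in EpiSCs, at percentile 27.4. All 3 were within 3 kb of the start. A site of 4081 bp over the start held ZIC2 peaks of 2174 and 736, an OTX2 peak of 93.4 and a SOX2 peak of 81.9. With 5 peaks Dusp6 had the highest SOX2 density of the 10 genes, at percentile 89.5, and the strongest of them, 279, was in an intron at 2.28 kb, where it overlapped a ZIC2 peak of 51. It was also the only gene other than Fgf5 with a POU3F1 peak, at 43.9 kb (178), over a SOX2 peak of 52.4.

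The central bases of the intronic SOX2 peak of Dusp6, chr10:98728050-98728249, plus strand of mm9, hold 3 SOX2 sequences, which are in capitals.
Dusp6 intron, SOX2 peak: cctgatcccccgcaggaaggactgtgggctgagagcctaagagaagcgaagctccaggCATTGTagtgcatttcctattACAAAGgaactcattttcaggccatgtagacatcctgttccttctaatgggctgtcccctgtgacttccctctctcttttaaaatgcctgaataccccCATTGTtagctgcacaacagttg
In activin-free cells the score of this peak was 311, and that of the SOX2 peak over the start was 198 compared with 81.9. The ZIC2 peaks at the start were joined into 1 peak of 4031 bp with a score of 3100. The POU3F1 score at 43.9 kb was 107 compared with 178.

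Of the target genes, Etv4 (chr11:101631056-101646685, minus strand, ENSMUSG00000017724.8) had 16 ZIC2, 16 OTX2 and 1 POU5F1 peaks in EpiSCs and no SOX2 peak. Its start was covered by a site of ZIC2 (1086) and OTX2 (292), the highest OTX2 score over the start of any of the 10 genes. Other ZIC2-OTX2 sites lay in the gene at 3.65 kb (ZIC2 111, OTX2 105), upstream at -16.1 kb (242 and 114), and at 52.7 kb over the start of Dhx8 (67.3 and 278). The next ZIC2 score of the window was 679, in an intron at 10.2 kb, and the median was 166. In activin-free cells SOX2 had 3 peaks with scores of 85.5 to 113, each over a ZIC2 peak and 2 of them over ZIC2-OTX2 sites, including that at the start (99.6). The POU5F1 peak at -4.71 kb had a score of 761 compared with 84.4.

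Etv5 (chr16:22381382-22439792, minus strand, ENSMUSG00000013089.8) had 10 ZIC2, 14 OTX2 and 4 SOX2 peaks in EpiSCs, and neither POU5F1 nor POU3F1 had a peak in either culture. Its ZIC2-OTX2 sites, 3 in all, were within the gene at 33.3 kb (ZIC2 281, OTX2 115), 27.2 kb (379 and 204) and 23.2 kb (161 and 61.2). The strongest OTX2 peak, 284, was nearby at 24.8 kb without ZIC2. ZIC2 scores were the lowest of the 10 genes at their highest, with 724 in an intron at 10.9 kb and 611 over the start. Central bases of the OTX2 peak at the site furthest into the gene, chr16:22406301-22406500, plus strand of mm9, hold CAGCAGG and the other OTX2 sequence GGTAAT, here on the minus strand, both in capitals.
Etv5 intron, ZIC2-OTX2 site: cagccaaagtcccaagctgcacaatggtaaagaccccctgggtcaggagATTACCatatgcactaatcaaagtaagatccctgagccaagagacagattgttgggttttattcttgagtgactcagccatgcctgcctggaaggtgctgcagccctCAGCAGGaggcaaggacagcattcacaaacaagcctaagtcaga
GGTAAT was found in 6 of 107 OTX2 member peaks (5.61%, 2.60-11.7), compared with 7.19% of the whole list. In activin-free cells the sites at 33.3 kb and 27.2 kb were still occupied by both TFs (ZIC2 197 and 444, OTX2 185 and 157), the OTX2 peak at 24.8 kb had a score of 376, and the ZIC2 peak over the start, 418, overlapped a SOX2 peak of 92.4.

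**Figure D4:**
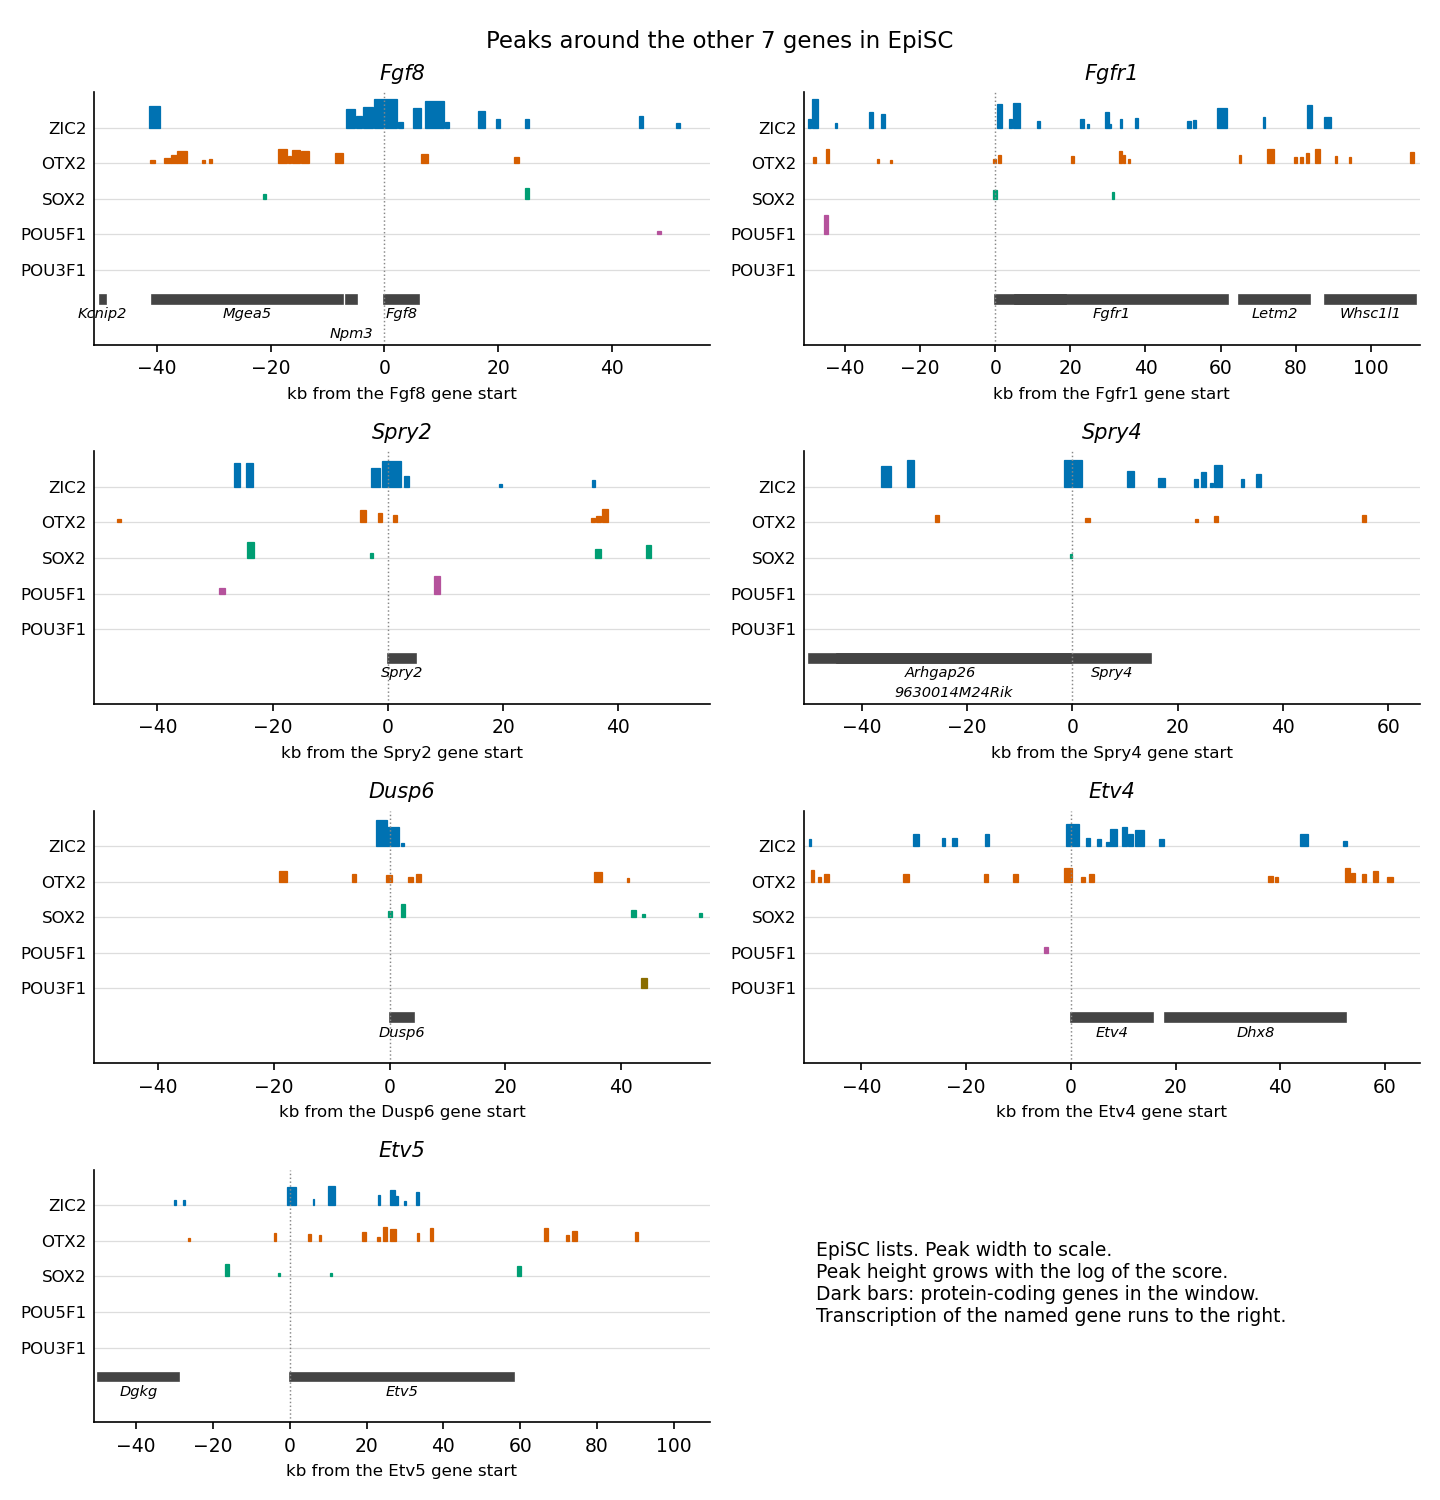
EpiSC peaks of the 5 TFs around the other 7 genes, by distance in kb from the start of each gene, with transcription to the right; bar height grows with the log of the score and dark bars are protein-coding genes. The tallest ZIC2 peaks lie at or close to the starts of Fgf8, Spry2, Dusp6 and Etv4, while OTX2 peaks of Fgf8 form 2 runs upstream.

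OTX2 and SOX2 peaks at the 10 genes overlapped ZIC2 peaks at higher shares than their whole lists did. In EpiSCs 38 of 129 ZIC2 peaks overlapped an OTX2 peak (29.5%, Wilson interval 22.3-37.8), compared with 14.8% of the whole ZIC2 list, and 34 of 107 OTX2 peaks overlapped a ZIC2 peak (31.8%, 23.7-41.1), compared with 17.8%. SOX2 peaks overlapped ZIC2 in 9 of 22 cases (40.9%, 23.3-61.3), compared with 5.27% of the whole SOX2 list. Those 9 were at Fgf5, Fgf8, Spry2, Spry4, Dusp6 and Etv5. In activin-free cells the shares were 20.3% for ZIC2 with OTX2 (14.2-28.3, whole list 12.7%), 32.5% for OTX2 with ZIC2 (23.2-43.4, 12%) and 45.7% for SOX2 with ZIC2 (30.5-61.8, 6.09%). The whole lists include peaks far from any gene, whereas all member peaks lay in gene windows. Member ZIC2 peaks were also denser and wider than the list as a whole, with a median of 1023 bp compared with 864 bp. The part of these differences in the overlaps was not tested. When at least 50% of both peaks had to be shared, the ZIC2 share with OTX2 was 10.9% (6.58-17.4), compared with 4.61% of the whole list.

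In EpiSCs 66.7% of ZIC2 member peaks (whole list 80.9%), 65.4% of OTX2 peaks (68.7%) and 40.9% of SOX2 peaks (67.0%) overlapped none of the other TFs. POU5F1 went the other way, with 71.4% compared with 39.0% of the whole list, and POU3F1 had 4 of 8 such peaks (whole list 61.9%). The start of a protein-coding transcript, of members or neighbours, lay under 21 of 129 ZIC2 peaks (16.3%, whole list 14.3%), 6 of 107 OTX2 peaks (5.61%, 3.63%), 3 of 22 SOX2 peaks (13.6%, 1.04%) and no POU peak. The whole lists again include peaks far from any gene, and the part of this in these shares was not tested. Octamers ATGCAAAT or ATGCATAT were found in 3 of 14 POU5F1 member peaks (21.4%, 7.57-47.6; whole list 18.5%) and 0 of 8 POU3F1 member peaks (whole list 8.81%). Runs of at least 8 CA units, searched for on both strands after the sequence of the Fgf5 peak had been seen, were found in 4 of 14 POU5F1 member peaks (28.6%, 11.7-54.6), 3 of them at Fgf5, and in 4.74% of the whole POU5F1 list. The count includes the peak that prompted the search. All 3 POU5F1 member peaks with an octamer, at Fgfr1 and Fgf5, were among these 4, so no octamer was found outside a peak with such a run. In activin-free cells 4 of 26 POU5F1 member peaks held such a run (15.4%, 6.15-33.5, whole list 4.16%), 1 of them at Fgf5. The other 4 whole EpiSC lists held such runs in 0.489% to 0.912% of peaks, as did 1 of 8 POU3F1 member peaks and no ZIC2, OTX2 or SOX2 member peak.

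The 2 cultures were compared peak by peak. ZIC2 peaks of EpiSCs at the 10 genes overlapped an activin-free ZIC2 peak in 83.7% of cases (108 of 129, Wilson interval 76.4-89.1), compared with 78.9% of the whole list. For OTX2 the share was 69.2% (74 of 107, 59.9-77.1), compared with 78.1%, and without Fgf4 and Fgf15 it was 74.2% (64.2-82.1). SOX2 peaks were found again in 77.3% of cases (17 of 22, 56.6-89.9, whole list 77.6%). POU5F1 peaks were found again in 100% (14 of 14, 78.5-100, whole list 98.3%) and POU3F1 peaks in 75% (6 of 8, 40.9-92.9, whole list 82.6%). In the reverse direction, 93.5% of activin-free ZIC2 peaks (whole list 91.2%) and 83.8% of OTX2 peaks (67.5%) overlapped one of EpiSCs. For SOX2 the share was 51.4% (55.9%), while POU5F1 had 53.8% (47.1%) and POU3F1 75% (86.8%).

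Peaks found in both cultures had higher scores than those found in EpiSCs alone. The medians were 365 and 71.2 for ZIC2 and 120 and 65.3 for OTX2, and the SOX2 medians were 101 and 63.5. Over matched ZIC2 peaks the order of the scores was alike in both lists (Spearman's rho 0.92 over 108 peaks), and it was less so for OTX2 (0.63 over 74 peaks), both given as descriptions across peaks of 2 libraries. The median log2 ratio of activin-free to EpiSC scores was 0.23 for ZIC2 (0.12 over all matched peaks of the lists), 0.07 for OTX2 (0.43) and 0.65 for SOX2 (0.43). POU5F1 had 1.5 (1.94) and POU3F1 0.63 (0.18). The scale of the scores thus differed between whole lists, whose depths are unknown. By gene, the median for OTX2 ran from -1.06 at Spry4, with 1 matched peak, to 1.41 at Fgf8, where joined peaks were matched several times.

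**Figure D5:**
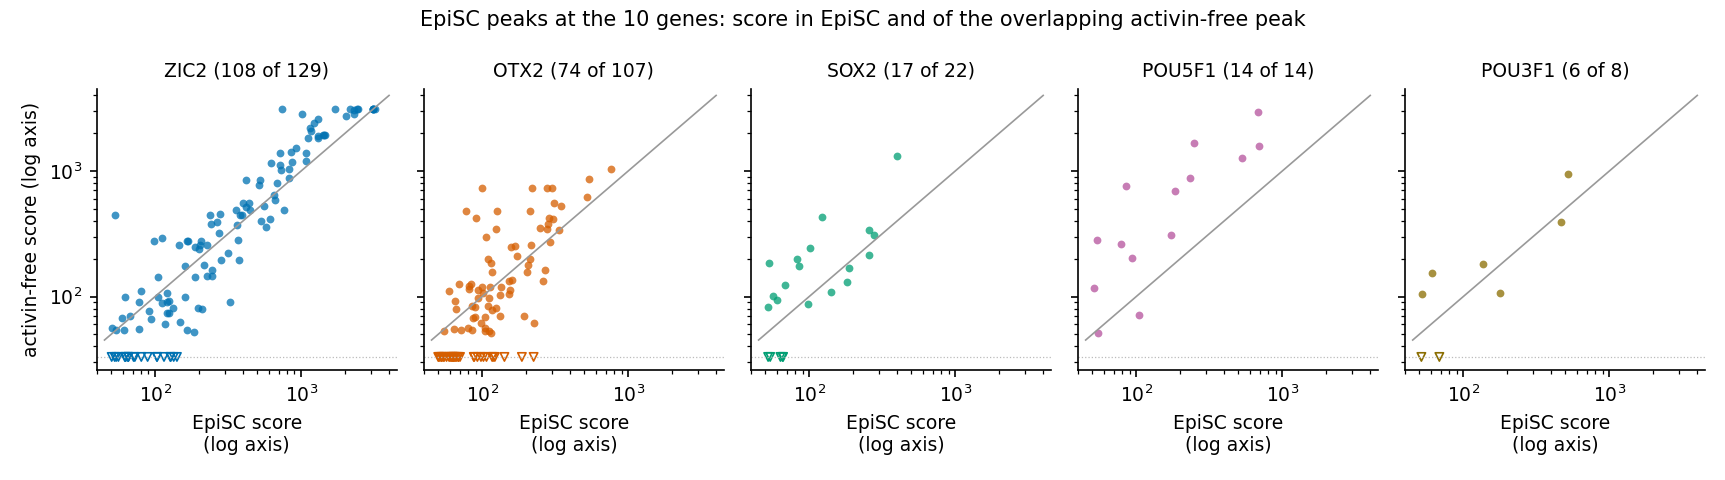
Each EpiSC peak at the 10 genes by its EpiSC score and the score of the overlapping activin-free peak of the same TF, both on log axes, with the line of equal scores; open triangles at the bottom are peaks with no activin-free partner, and each title gives the peaks with a partner. All 14 POU5F1 peaks have a partner and most lie above the line, while the 21 ZIC2 triangles have EpiSC scores of at most 141 and the 33 OTX2 triangles of at most 225.

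Other genes of the pathway were looked up from a list of 54 ligands, receptors, adaptors, kinases, inhibitors and targets, of which 52 were in the annotation. ZIC2 had a peak at all 52 in EpiSCs, OTX2 at 51, SOX2 at 39, POU5F1 at 44 and POU3F1 at 26. Overlapping ZIC2 and OTX2 peaks were present at 45 of 52 (86.5%), against 69.1% of all genes, and the share was lowest among ligands (9 of 14) and highest among receptors (4 of 4) and targets (7 of 7). Peaks of 4 or more TFs at 1 site, which among the 10 members only Fgf5 had, were found at 8 of the 52 (15.4%), as at 6.98% of all protein-coding genes. Among these were the ligand gene Fgf18, the receptor gene Fgfr2, the inhibitor gene Spred1 and the target Ier2. The Fgfr2 window held 290 ZIC2 and 228 OTX2 peaks in EpiSCs, where the medians of the 52 genes were 13.5 and 10.5. The length of that window is not given here, so its peaks are not read as dense binding. These counts of genes were not adjusted for window length. Spred1 had a site with all 5 TFs in both cultures, and Fgf18 had such a site in activin-free cells. In activin-free cells 43 of 52 had ZIC2-OTX2 overlaps (82.7%) and 13 had 4 or more TFs at 1 site, where 15% of all genes and, of the 10 members, Fgf5 did.

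Over the 10 lists, the percentiles of peak density were most alike between Fgf15 and Creb3l1 (Euclidean distance 8.43), Fgf4 and Creb3l1 (9.03), and Etv5 and Clec10a (13.4), where the median distance of a member to all genes was 98.1 to 137. Creb3l1 had 45 ZIC2 and 21 OTX2 peaks in EpiSCs and none of the other TFs.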

How the data were processed

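Peak lists from 10 ChIP-seq libraries were analysed, 1 for each of 5 TFs in 2 cultures, and an input sample was not analysed here. As the authors describe, reads were aligned to mm9 with Bowtie2, and peaks were called per library with MACS1.4 against input at default settings apart from a band width of 150 bp. The deposited score of a peak is not scaled to depth, which is unknown, so scores of different libraries are not strictly comparable, and nothing separates the cultures from their libraries.

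Gene bodies were those of GENCODE vM1 (NCBIM37, the same build as mm9). Peaks on chromosomes 1 to 19, X and Y were assigned by midpoint. Overlap required 1 shared bp. Densities were compared with the windows of all protein-coding genes, and percentiles give tied genes their middle rank. Binding sequences were searched on both strands within 100 bp of peak midpoints, and flanking windows were centred 1000 bp to either side. Shares have 95% Wilson intervals and counts exact Poisson intervals, for counting error only. Python 3.11.15 was used with pysam 0.24.0 for sequence, scipy 1.17.1 for intervals, numpy 2.4.6, and matplotlib 3.10.9 for figures, and the overlap code was tested on simulated data.

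The 10 genes and the pathway list were chosen with earlier results of these data known. The genes and sites named were all members, for each gene the site with the most TFs, sites with overlapping ZIC2 and OTX2 peaks, and the highest peak of each TF, and further peaks were named after their values were seen. The comparison of gene starts, the sequences shown by TF, the CA repeats, the Fgf4 element and the whole-list shares beside peak location were also chosen after values were seen. Of the pathway list Hras and Spry3 were not matched, and some of its genes are not reported here. Alternatives were a score of at least 100, the 50000 highest-scoring peaks, flanks of 20 kb or 100 kb, 50 kb around the gene start, overlap of 50% of both peaks, leaving out each gene and, chosen after seeing the data, leaving out Fgf4 and Fgf15 together.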

Additional observations from a re-analysis of the deposited data

How the results depend on the processing

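Of 199 values recomputed under alternatives, 182 stayed within the counting error of the reported value (for counts of genes, within a factor of 1.5). Most of the 199 only left out a single gene, or Fgf4 and Fgf15 together. Such values shared most peaks with the reported value, apart from POU values without Fgf5. For the number of genes with a ZIC2-OTX2 site, leaving out genes could not give another outcome. The tally is therefore a weak check. The ZIC2 density ratio of 1.77 became 2.17 when each list was limited to its 50000 highest-scoring peaks, 2.20 with 20 kb flanks and 1.43 without Fgf4 and Fgf15, and the OTX2 ratio of 1.79 became 1.45 within 50 kb of the gene start. The share of ZIC2 peaks that overlapped OTX2, 29.5%, was 20.3% with 100 kb flanks and 10.9% when 50% of both peaks had to be shared (4.61% of the whole list). The shares of EpiSC peaks found again in activin-free cells moved with the 50000 highest-scoring peaks to 89.7% for ZIC2, 57.9% for OTX2, 72.7% for POU5F1 and 100% for POU3F1. They moved to 58.9% for OTX2 with 50% overlap of both peaks, to 100% for SOX2 and POU3F1 with a score of at least 100, and to 100% for POU3F1 with 20 kb flanks. The POU5F1 ratio was 0.681 (0.363-1.16) within 50 kb of the gene start and 0.602 (0.329-1.01) without Etv5. Both intervals included the level of all genes. When genes were left out in turn, the POU5F1 ratio ran from 0.207 to 0.602, the POU3F1 ratio from 0.0280 to 0.233 and the POU3F1 share found again from 71.4% to 100%. The extreme value came without Fgf5 for both ratios, at 0.207 and 0.0280, and for the share, which then rested on a single peak. The cause of these differences was not tested. No paired analysis was possible because there was 1 library for each TF in each culture. Read depth is unknown, so whether a peak missing from a list was absent or too shallowly sequenced could not be told apart.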
